A study of Mus musculus with 20 samples.

Results

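RNA levels of 10 genes of the autophagosome pathway were followed through the first days of high-fat feeding in the epididymal fat of C57BL6/J males. The 10 genes were a named list, chosen with earlier results of these data known. They were taken from the deposited count table of 39179 Ensembl gene IDs by symbol: Trp53inp2, Map1lc3a, Map1lc3b, Gabarap, Gabarapl1, Gabarapl2, Sqstm1, Ulk1, Optn and Uvrag. All 10 passed the filter on low counts, which left 15254 genes. The mice were kept on chow (day 0) or were switched to a high-fat diet and sampled on day 2, 4, 6 or 14, with 4 libraries in each of the 5 groups and 20 in all. The labels call the libraries biological replicates and give no genotype other than the strain, no age and no pooling, and chow libraries of later days were not analysed here. Every comparison with chow therefore uses the same 4 libraries of day 0, so the 4 comparisons share their controls and age cannot be told apart from diet.

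Autophagy encloses cytoplasm in a double membrane, the autophagosome, which then fuses with the lysosome. The kinase Ulk1 starts the process, a lipid kinase complex that Uvrag can join marks the membrane, and small ubiquitin-like proteins of the Atg8 family are attached to it. Map1lc3a, Map1lc3b, Gabarap, Gabarapl1 and Gabarapl2 encode members of that family, while Sqstm1 and Optn encode receptors that tether cargo to them. Trp53inp2 encodes a protein that shuttles between the nucleus, where it acts as a coactivator of nuclear receptors such as the thyroid hormone receptor, and forming autophagosomes, where it binds Atg8 family proteins. In fat, autophagy is known for its part in adipocyte differentiation and in the turnover of mitochondria and lipid.

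Total counts ran from 1916829 to 38832429 per library, and the smallest library (day 2 replicate 1) still held 64 to 2023 reads of each of the 10 genes. Markers fixed for the tissue check placed the libraries in fat: all 10 adipocyte genes were detected, with summed levels of 20549.6 to 42577 CPM, the unit used throughout (counts per library size after TMM scaling, the trimmed mean of M-values). Libraries that stood apart were chow replicate 4, which had 166 CPM of 10 epididymal and ductal epithelium markers (the rest of the chow group had 10.8 to 14.5 CPM), and the shallow day 2 replicate 1. Adam28 of that list was at 0 in every library, and Lcn8, Lcn5 and Defb20 had 17, 1 and 4 reads over all libraries together. The sum therefore does not rest on these 4 genes. Day 4 replicate 1 and day 6 replicate 4 differed from the rest of their days by 12 cell cycle genes, with 66.1 CPM against 512 to 622 CPM on day 4 and 367 CPM against 50.2 to 105 CPM on day 6.

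Trp53inp2 lies on chromosome 2, at chr2:155381059-155389850 on the plus strand in GENCODE M21 (GRCm38), with 5257 bases of exon, and Map1lc3a lies at chr2:155276297-155278073 on the same strand. Trp53inp2 rose at every time of high-fat feeding and was at its highest mean on day 4. It had 473, 337, 367 and 422 CPM in the chow libraries and 1091, 934, 1109.6 and 1043 CPM after 2 days. It had 1021, 1700.4, 1910.4 and 1978 CPM on day 4, 1000.2, 1128, 1389.6 and 1801 CPM on day 6, and 1367, 1022, 1487 and 1396 CPM on day 14. All 16 high-fat libraries were above all 4 chow libraries: the lowest had 934 CPM, against 473 CPM in the highest chow library. Within day 4 the low library was replicate 1, and within day 6 the high one was replicate 4, the same libraries that stood apart by cell cycle genes. In whole tissue, fewer cells of a type and less RNA per cell cannot be told apart, and this holds for every level given here.

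The log2 change of Trp53inp2 against chow was 1.38 ± 0.20 (SE) on day 2, a 2.61-fold level, with a Benjamini-Hochberg adjusted p of 0.00345 in edgeR's quasi-likelihood test over all genes. A change is called where this adjusted p is under 0.05. On day 4 it was 2.05 ± 0.21, or 4.13-fold, with an adjusted p of 1.01e-04 in the same edgeR test. On day 6 it was 1.73 ± 0.20, or 3.32-fold, and on day 14 it was 1.72 ± 0.20, or 3.30-fold, with edgeR adjusted p-values of 5.70e-04 and 5.30e-04. Among 15254 genes, Trp53inp2 had the smallest p-value on day 4, on day 14 and in the test of any difference among the 5 groups, and ranked 2 on day 6 and 7 on day 2. By the size of the rise it ranked 81, 225, 122 and 38 on days 2, 4, 6 and 14. Since the gene was chosen with earlier results of these data known, these ranks are descriptions and not independent support. The change was called in all 8 fits that left out 1 library at each time, between 1.32 and 2.22 on the log2 scale over the 4 days. A fit of only the day 6 and chow libraries gave the same 1.73 but an edgeR adjusted p of 0.0955, and 0 of all genes were called in that fit.

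Between high-fat days the level of Trp53inp2 did not pass the test. The difference of day 4 from day 2 was 0.66 ± 0.20 on the log2 scale, with an edgeR adjusted p of 0.0770, and it was 0.84 with an adjusted p of 0.00555 without day 4 replicate 1. Day 14 differed from day 4 by -0.33 ± 0.20 (edgeR adjusted p = 0.293) and from day 6 by -0.01, with a 95% interval from -0.44 to 0.41. Without the 4 libraries that stood apart, day 6 differed from day 4 by -0.65 (edgeR adjusted p = 0.0198) and day 14 by -0.48 (0.0472). In that fit 14.9% and 18.5% of all genes were called, against 0% and 9.36% with all libraries. It leaves out the lowest day 4 and the highest day 6 library of Trp53inp2, which by itself widens these differences.

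**Figure D1:**
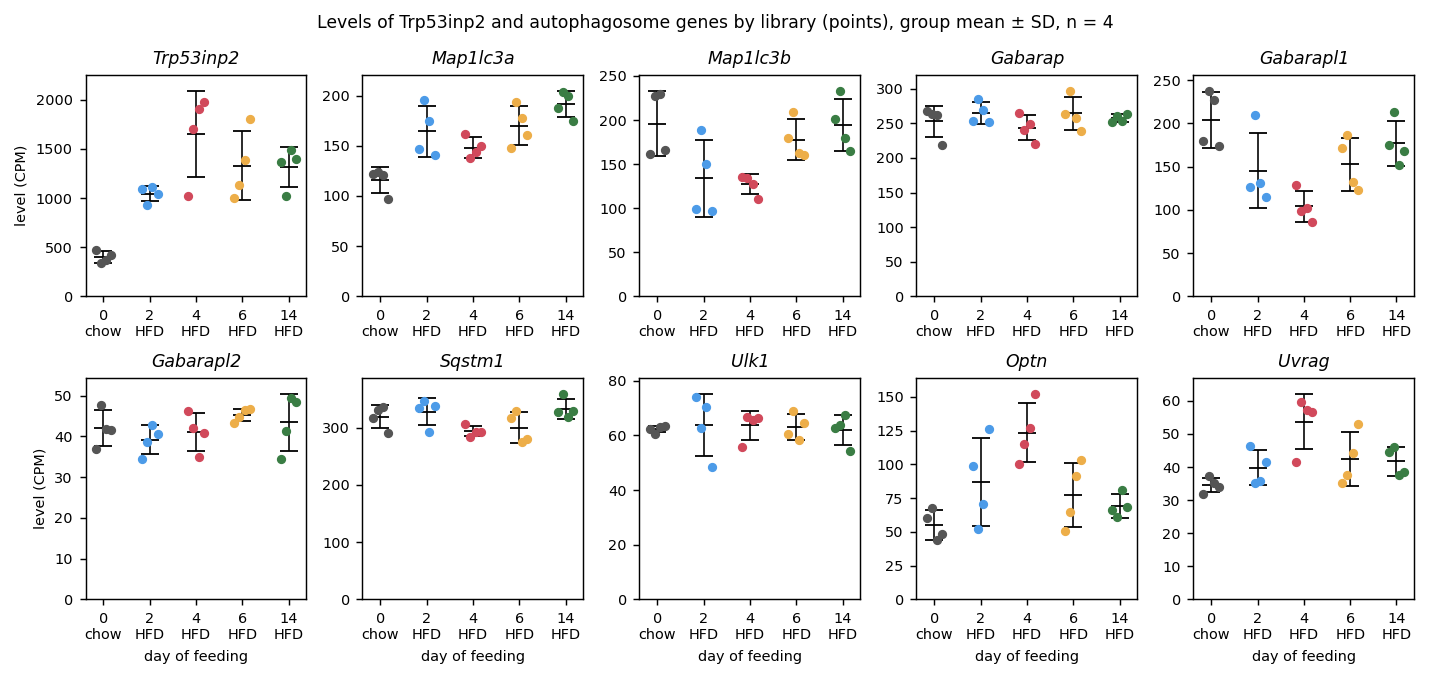
Level of each of the 10 genes in CPM (linear axis from 0) by day of feeding, with 1 point per library and bars for the mean ± SD of 4 libraries. Trp53inp2 and Map1lc3a lie above chow in every high-fat library, and the other 4 genes not named next overlap chow on every day. Gabarapl1 and Map1lc3b have their lowest mean on day 4, and Optn and Uvrag their highest. For Map1lc3b the day 2 mean is close, at 134 against 127 CPM on day 4, and its lowest library is on day 2, at 97.3 CPM.

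The paralog Trp53inp1, which also encodes a p53-inducible Atg8-binding protein, was called lower on days 2 and 4. It had 21.6, 27.2, 24.9 and 19.1 CPM on day 2 and 24.4, 34.7, 29.5 and 28.9 CPM on day 4, against 33.4, 82.9, 34.5 and 49.4 CPM on chow. Day 2 lay below chow without overlap and day 4 overlapped the lower chow libraries. Day 14, at 25.8 to 31.8 CPM, also lay below chow without overlap, and day 6 overlapped it, at 29.1 to 45.3 CPM. Its log2 change was -1.08 ± 0.23 on day 2 and -0.77 ± 0.23 on day 4, with edgeR adjusted p-values of 0.0196 and 0.0159; chow replicate 2, at 82.9 CPM, weighed on both. Without it the changes were -0.72 and -0.44 (edgeR adjusted p = 0.0556 and 0.0581), and the day 2 call was also lost without chow replicate 4 (0.0565) and without day 2 replicate 1 (0.0588) or 4 (0.0878). Without the 4 libraries that stood apart the adjusted p was 0.138 on day 2 and 0.0636 on day 4. On days 6 and 14 the values were -0.49 and -0.78 and did not pass (edgeR adjusted p = 0.179 and 0.0811; the day 14 value passed at 0.0334 without chow replicate 1). The count ratio of Trp53inp2 to Trp53inp1 within a library was 4.07 to 14.2 on chow, then 34.4 to 54.7 (day 2), 41.9 to 68.4 (day 4), 29.6 to 42.9 (day 6) and 32.8 to 57.7 (day 14).

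The upstream windows of the genes that moved on day 4 are shown, since those genes passed the test on the same day, some higher and some lower. They are the 250 bases before the RefSeq start of each gene (build GRCm38.p6), on the gene's own strand, and Map1lc3a is named only. For Trp53inp2 the GENCODE gene begins farther upstream, so the window lies within it. The windows of Map1lc3b and Gabarapl1 run into their GENCODE genes in part. So do those of Gabarap, Sqstm1 and Ulk1, which are not printed, and most of the Gabarap window lies within its gene. The build behind the deposited counts is not given in the sources used here. Capitals mark the CCAAT box (CCAAT or its reverse complement ATTGG) and the palindromic cAMP response element TGACGTCA, a motif added to the search after the Trp53inp2 sequence was seen.
Trp53inp2, chr2:155381606-155381855, plus strand: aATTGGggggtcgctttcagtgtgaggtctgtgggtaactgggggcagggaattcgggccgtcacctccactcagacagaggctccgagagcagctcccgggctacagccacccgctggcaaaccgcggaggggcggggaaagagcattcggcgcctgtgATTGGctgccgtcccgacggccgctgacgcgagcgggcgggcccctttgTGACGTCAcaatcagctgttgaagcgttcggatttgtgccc
Optn, chr2:5064118-5064367, minus strand: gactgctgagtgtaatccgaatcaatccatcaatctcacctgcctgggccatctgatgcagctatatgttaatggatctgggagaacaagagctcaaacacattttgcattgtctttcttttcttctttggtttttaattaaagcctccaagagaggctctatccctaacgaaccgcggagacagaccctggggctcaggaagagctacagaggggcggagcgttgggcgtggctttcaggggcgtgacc
Uvrag, chr7:99141145-99141394, minus strand: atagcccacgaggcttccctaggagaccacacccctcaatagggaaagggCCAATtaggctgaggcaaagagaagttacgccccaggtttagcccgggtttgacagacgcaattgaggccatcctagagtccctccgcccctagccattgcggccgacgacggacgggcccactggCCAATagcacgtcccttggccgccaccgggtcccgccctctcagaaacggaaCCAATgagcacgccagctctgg
Gabarapl1, chr6:129532942-129533191, plus strand: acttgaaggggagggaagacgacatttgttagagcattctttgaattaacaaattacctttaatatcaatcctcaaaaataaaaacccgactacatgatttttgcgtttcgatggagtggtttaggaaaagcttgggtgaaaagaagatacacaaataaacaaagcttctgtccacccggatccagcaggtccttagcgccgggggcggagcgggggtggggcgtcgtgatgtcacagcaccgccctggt
Map1lc3b, chr8:121590188-121590437, plus strand: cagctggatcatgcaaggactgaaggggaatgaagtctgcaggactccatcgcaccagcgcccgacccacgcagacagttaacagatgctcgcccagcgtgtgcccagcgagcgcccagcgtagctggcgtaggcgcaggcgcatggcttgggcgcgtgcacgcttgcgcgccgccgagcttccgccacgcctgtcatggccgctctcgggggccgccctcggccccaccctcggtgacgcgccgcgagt

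Searched on both strands in 27025 RefSeq windows of the same length, the CCAAT box was in 34.5% and the full cAMP response element in 1.62%. Trp53inp2 held the CCAAT box 249 and 90 bases before its start and the cAMP response element 41 bases before it, and Uvrag held the CCAAT box 200, 74 and 22 bases before its start. No other of the 9 windows found held either motif. The GC box GGGCGG, in 32.9% of all windows, was in 8 of the 9 and not in that of Gabarap, most of which lies within its GENCODE gene. The E-box CACGTG (6.05% of windows), the FOXO site TGTTTAC (3.09%) and the antioxidant response element core TGACNNNGC (10.1%) were in none of the 9. A match describes letters in these windows and not a bound site. The bases after the RefSeq start were found in a GENCODE M21 transcript for 7 of the 9 genes, Optn and Uvrag being the exceptions.

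Of the Atg8 family, Map1lc3a rose while Map1lc3b and Gabarapl1 fell on day 4. Map1lc3a, the LC3A gene, had 122, 124, 121 and 96.8 CPM on chow and 147, 195, 175 and 141 CPM on day 2. It had 162, 138, 143 and 149.7 CPM on day 4, 148, 193, 178 and 161 CPM on day 6, and 188, 204, 199.8 and 175 CPM on day 14. No high-fat library overlapped chow, and the 4 libraries of day 14 were also above those of day 4. The log2 change against chow was 0.51 ± 0.11 after 2 days, 0.36 ± 0.11 after 4, 0.56 ± 0.11 after 6 and 0.73 ± 0.11 after 14. The edgeR adjusted p-values were 0.0196, 0.0188, 0.0266 and 0.00378 in that order.

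The day 14 rise of Map1lc3a was called in all 8 fits that left out 1 library, and each earlier call was lost in some of them. Without chow replicate 4 the log2 change was 0.43 on day 2, 0.27 on day 4 and 0.47 on day 6 (edgeR adjusted p = 0.0759, 0.0814 and 0.103), and 0.594%, 26.9% and 0.0457% of all genes were called. The day 2 call was also lost without chow replicate 2 (0.56, adjusted p = 0.0517), the day 4 call without day 4 replicate 4 (0.35, 0.0580), and the day 6 call without day 6 replicate 2, 3 or 4 (0.49 to 0.58, 0.0764 to 0.0854). Without chow replicate 4 and day 2 replicate 1 together the changes were 0.50, 0.28 and 0.48, with edgeR adjusted p-values of 0.132, 0.0825 and 0.129. With scaling by library size only, the day 4 change was 0.25 (edgeR adjusted p = 0.0515).

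Map1lc3b, the LC3B gene whose protein is the usual marker of autophagosomes, fell on day 4 and overlapped chow on days 6 and 14. It had 162, 227, 229 and 166 CPM on chow, 98.7, 188, 150.5 and 97.3 CPM on day 2, and 136, 135, 128 and 111 CPM on day 4. It had 179, 209.5, 162 and 160.0 CPM on day 6 and 201, 233, 179 and 164 CPM on day 14. The day 4 libraries were all below the chow libraries, while day 2 was split, with replicates 1 and 4 low and replicate 2 within the chow range. The log2 change was -0.62 ± 0.18 on day 4 (edgeR adjusted p = 0.0148; 0.0536 without day 4 replicate 4) and -0.54 ± 0.18 on day 2 (0.0878; 0.0166 without day 2 replicate 2). On days 6 and 14 it was -0.14 and -0.01, with 95% intervals from -0.53 to 0.25 and from -0.40 to 0.38. Zcchc14 on the opposite strand, at 59.3 to 82.5 CPM, shares exon bases with Map1lc3b, and with no strand setting stated their reads cannot be told apart there.

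Gabarapl1, which encodes a GABARAP-like member of the family, had the largest fall of the 10 genes. It had 179, 238, 227 and 173 CPM on chow, 127, 209, 131 and 114 CPM on day 2, and 129, 98.6, 103 and 86.2 CPM on day 4. It had 171, 186, 132 and 122 CPM on day 6 and 175, 213, 152 and 169 CPM on day 14. Every day 4 library was below every chow library, and the other days overlapped chow. On day 4 the log2 change was -0.97 ± 0.19, or 0.510-fold, with an edgeR adjusted p of 0.00168, and it was called in all 8 fits that left out 1 library. On day 2 it was -0.48 ± 0.19 (edgeR adjusted p = 0.117; 0.0174 without day 2 replicate 2), on day 6 -0.42 ± 0.19 (0.175) and on day 14 -0.20 ± 0.19 (0.613).

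Gabarap and Gabarapl2, the other GABARAP subfamily genes, did not pass the test at any time. Gabarap had 219 to 268 CPM on chow, 253 to 286 CPM on day 2, 221 to 265 CPM on day 4, 239 to 297 CPM on day 6 and 252 to 264 CPM on day 14. Gabarapl2 had 36.9 to 47.7 CPM on chow, 34.5 to 42.9 CPM on day 2, 34.8 to 46.2 CPM on day 4, 43.3 to 46.6 CPM on day 6 and 34.5 to 49.5 CPM on day 14. The range of each high-fat day overlaps that of chow. Processed copies of Gabarapl2 are annotated in the genome, and reads they share with it cannot be told apart here. Over the 4 comparisons with chow, the 95% intervals of the log2 change lay within -0.24 and 0.25 for Gabarap and within -0.32 and 0.34 for Gabarapl2.

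The ratio of family members within a library does not depend on the scaling. The count ratio of Map1lc3a to Map1lc3b was 0.528 to 0.754 on chow, then 1.04 to 1.49 (day 2), 1.02 to 1.35 (day 4), 0.825 to 1.10 (day 6) and 0.877 to 1.11 (day 14), so no high-fat library overlapped chow. The ratio of Gabarap to Gabarapl1 was 1.11 to 1.49 on chow, then 1.36 to 2.21 (day 2), 2.05 to 2.56 (day 4), 1.54 to 1.96 (day 6) and 1.22 to 1.68 (day 14). That ratio was above chow in every library of days 4 and 6 and overlapped chow on days 2 and 14. These ratios are given as descriptions, without a test.

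Of the cargo receptors, Optn rose on day 4 and Sqstm1 did not pass the test. Optn, which encodes optineurin, a receptor for damaged mitochondria and bacteria, had 60.4, 67.8, 43.9 and 48.3 CPM on chow, 98.7, 52.5, 70.7 and 126 CPM on day 2, and 99.96, 115, 127 and 152 CPM on day 4. It had 50.8, 64.7, 91.3 and 103 CPM on day 6 and 66.2, 60.9, 81.3 and 68.4 CPM on day 14. Day 4 lay above chow without overlap, and the other days spread from within the chow range to above it. The log2 change on day 4 was 1.17 ± 0.24, or 2.25-fold, with an edgeR adjusted p of 0.00239, called in all 8 fits that left out 1 library. It was 0.65 ± 0.25 on day 2 (edgeR adjusted p = 0.112; 0.0321 without day 2 replicate 2), 0.50 ± 0.24 on day 6 (0.211) and 0.33 ± 0.24 on day 14 (0.505).

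Sqstm1 encodes p62, a ubiquitin-binding receptor that is itself degraded by autophagy. It had 291 to 337 CPM on chow, 293 to 347 CPM on day 2, 284 to 306 CPM on day 4, 275 to 328 CPM on day 6 and 319 to 358 CPM on day 14. Its ranges overlapped chow at every time, and the 95% intervals of its log2 change against chow lay within -0.29 and 0.24. On day 4 the value was -0.12 ± 0.08 (edgeR adjusted p = 0.272), and with scaling by library size only it was -0.23 with an adjusted p of 0.0421. Under that scaling the median over all genes was itself -0.13 on day 4, against -0.02 with TMM scaling.

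Of the initiation genes, Uvrag rose on day 4 and Ulk1 did not pass the test at any time. Uvrag, a subunit that joins Beclin 1 and the lipid kinase Pik3c3, had 32.0, 37.2, 35.2 and 34.1 CPM on chow, 46.4, 35.3, 35.7 and 41.5 CPM on day 2, and 41.5, 59.7, 57.3 and 56.5 CPM on day 4. It had 35.1, 37.5, 44.1 and 53.1 CPM on day 6 and 44.5, 46.1, 37.6 and 38.4 CPM on day 14. Replicate 1 was again the low library of day 4 and replicate 4 the high one of day 6, as for Trp53inp2. Days 4 and 14 lay above chow without overlap, by a narrow margin on day 14. The log2 change on day 4 was 0.63 ± 0.13, or 1.55-fold, with an edgeR adjusted p of 0.00253, called in all 8 fits that left out 1 library, and it was 0.18, 0.30 and 0.27 on days 2, 6 and 14 (edgeR adjusted p = 0.433, 0.172 and 0.283). Ulk1, the kinase at the head of the pathway, had 60.6 to 63.4 CPM on chow, 48.5 to 73.9 CPM on day 2, 55.8 to 66.8 CPM on day 4, 58.4 to 69.0 CPM on day 6 and 54.3 to 67.4 CPM on day 14. The 95% intervals of its change against chow lay within -0.23 and 0.25 on the log2 scale.

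**Figure D2:**
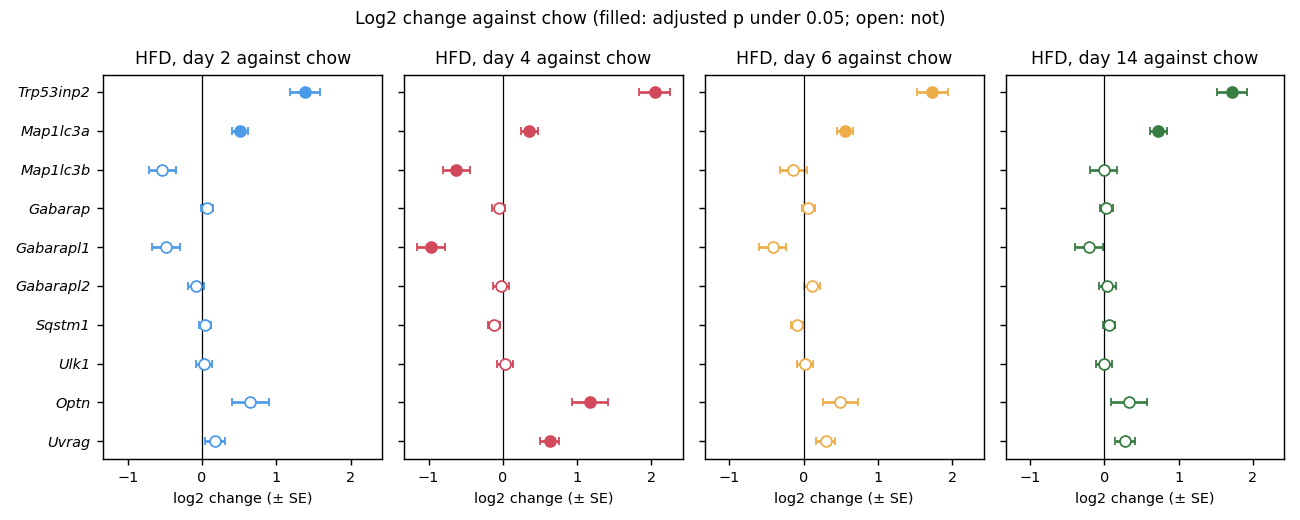
Log2 change of each gene against chow (x axis, ± SE from the edgeR fit) on days 2, 4, 6 and 14, with filled points for an adjusted p under 0.05 and open points for the others. Trp53inp2 and Map1lc3a are filled at all 4 times, while Map1lc3b, Gabarapl1, Optn and Uvrag are filled on day 4 only; whether their day 4 changes differed from the other days is given by the tests between days.

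Counted together, 2 of the 10 genes were called on day 2, both higher, where 4.39% of all tested genes were called (2.43% higher, 1.96% lower). On day 4 6 were called, 4 higher and 2 lower, against 35.3% of all genes (18% higher, 17.3% lower). On day 6 2 were called, both higher, against 3.45% (1.99% higher, 1.46% lower), and on day 14 2, both higher, against 1.18% (0.878% higher, 0.302% lower). On days 2, 6 and 14 the same pair was called, Trp53inp2 and Map1lc3a. So many genes passed on day 4 that a count of 6 there stands against a high background. The 10 genes were chosen with earlier results of these data known, so the counts describe them and do not test the set. The median log2 change over the 10 genes was 0.05, 0.00, 0.09 and 0.05 on days 2, 4, 6 and 14, beside -0.03, -0.02, -0.01 and -0.01 over all genes tested. In the test of any difference among the 5 groups 6 of the 10 were called, against 19.6% of all genes. That count was 3 (Trp53inp2, Map1lc3a and Gabarapl1) without chow replicate 4 and day 2 replicate 1 (4.93% of all genes), 3 without day 4 replicate 3 (10.8%) and 2 without day 4 replicate 4 (6.31%).

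Between high-fat days, calls were fewer. Day 4 against day 2 gave 0 calls of the 10 by edgeR (2.40% of all genes, 2.14% higher and 0.256% lower), with 4 at an unadjusted p under 0.05; DESeq2 called 2 (Trp53inp2 and Uvrag; 5.99% of all genes), limma-voom 0 (0%) and limma-voom with quality weights 4 (22.2%). Without day 4 replicate 1, edgeR called 3 there (Trp53inp2, Gabarapl1 and Uvrag), and 14.5% of all genes. Day 6 against day 4 gave 0 calls by edgeR (0% of all genes), with 4 at an unadjusted p under 0.05; DESeq2 and limma-voom called 0, and limma-voom with quality weights 4 (13.4% of all genes). Day 14 against day 6 gave 0 calls by edgeR (0% of all genes), with 0 at an unadjusted p under 0.05 and 0 by DESeq2 and by both limma-voom fits.

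Day 14 differed from day 4 for 4 of the 10 genes, where 9.36% of all genes were called (4.58% higher, 4.78% lower). Gabarapl1, Map1lc3b and Map1lc3a were higher on day 14, by 0.77 ± 0.19, 0.61 ± 0.18 and 0.37 ± 0.11 on the log2 scale, with edgeR adjusted p-values of 0.0283, 0.0447 and 0.0449. Optn was lower, by -0.84 ± 0.24 (edgeR adjusted p = 0.0407). For all 4 the libraries of the 2 days did not overlap. Nor did they for Sqstm1, which was not called (edgeR adjusted p = 0.156). The share of all genes without such overlap was not counted, here or for the other comparisons. In fits that left out 1 library, 0 of all genes, and so 0 of the 10, were called without day 4 replicate 2, 3 or 4 or without day 14 replicate 1 or 2, with edgeR adjusted p-values of up to 0.162 for these 4 genes. Without day 14 replicate 4, 1 was left (3.44% of all genes), without day 14 replicate 3 there were 3 (10.6%), and without day 4 replicate 1 there were 5 (17.1%).

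**Figure D3:**
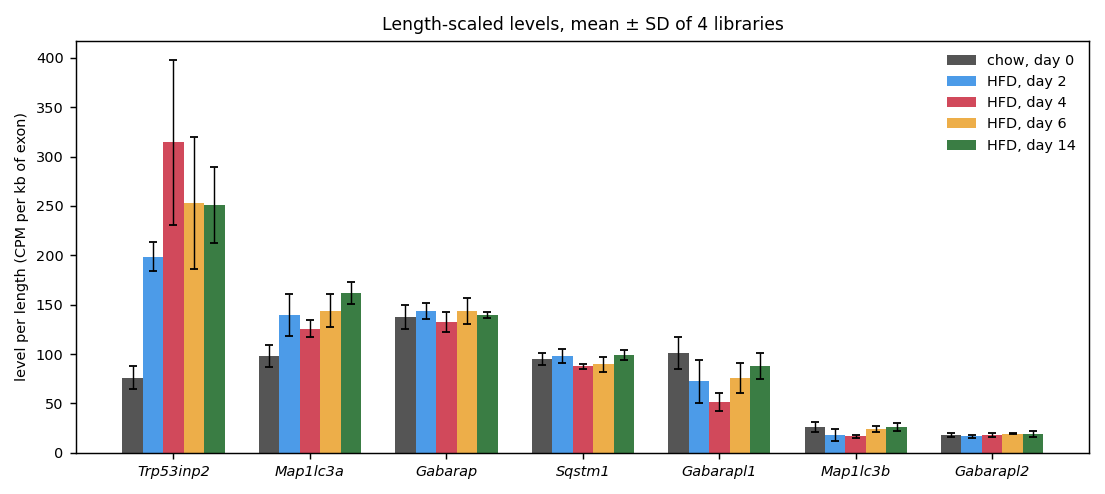
Level per length, in CPM per kb of the union of exons in GENCODE M21, for the 7 genes with the highest levels on chow, as bars for the mean ± SD of 4 libraries by day. Trp53inp2 is the tallest group on days 2, 4, 6 and 14, at 199, 314, 253 and 251 CPM per kb, and ranks 5 on chow at 76.1 CPM per kb.

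Levels of different genes were compared per length of exon. On chow the order was Gabarap at 137 ± 12.3 CPM per kb (SD, n = 4), Gabarapl1 at 101 ± 16.2, Map1lc3a at 98.0 ± 10.8, Sqstm1 at 94.96 ± 5.98 and Trp53inp2 at 76.1 ± 11.5 CPM per kb. The middle 3 of these were within the sum of their SDs of each other. Trp53inp2 was also within the sum of SDs of Gabarapl1 and of Map1lc3a, but not of Sqstm1. Map1lc3b followed at 26.1 ± 4.92, Gabarapl2 at 18.1 ± 1.90, Optn at 14.7 ± 2.92, Ulk1 at 9.60 ± 0.191 and Uvrag at 3.83 ± 0.240 CPM per kb, where Gabarapl2 and Optn were within the sum of their SDs. After the switch to high-fat food Trp53inp2 led the 10 genes at every time, with 199 ± 15.01 after 2 days, 314 ± 83.2 after 4, 253 ± 67.2 after 6 and 251 ± 38.7 CPM per kb after 14. The next gene was Gabarap at 144 ± 8.42 on day 2 and 132 ± 9.98 on day 4, then Map1lc3a at 144 ± 16.8 on day 6 and 162 ± 11.1 CPM per kb on day 14. Per length of the longest coding transcript Trp53inp2 again ranked 1 on all 4 days and 5 on chow. On chow it had 100.5 CPM per kb by that length, close to Map1lc3a at 104.1 CPM per kb, which ranked 4. The value of Map1lc3b depends on the length used, being 74.4 instead of 26.1 CPM per kb on chow by its longest coding transcript.

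The members also varied with each other inside the groups. Over the 20 libraries, the log2 level of Trp53inp2 correlated with that of Gabarapl1 at r = -0.72, and at -0.78 after group means were taken away. With Uvrag r was 0.72 (0.54 within groups), with Optn 0.68 (0.58), with Map1lc3b -0.44 (-0.51), with Sqstm1 -0.37 (-0.65) and with Gabarap -0.17 (-0.56). Map1lc3a correlated at 0.61 over all libraries and at -0.28 within groups, so its likeness to Trp53inp2 lay between diets and not among libraries of the same day. These are descriptions over libraries that share their scaling, their 5 groups and the libraries that stood apart. Adipocyte marker levels moved with the same libraries: on day 4 they summed to 32365 CPM in replicate 1 and 20549.6 to 22589 CPM in replicates 2 to 4, and on day 6 to 24014 CPM in replicate 4 and 33385 to 39412 CPM in the others, against 22569 to 41036 CPM on chow. On day 4, where 18% of all genes were called higher, the 12 cell cycle genes had 12 called higher, with a median log2 change of 3.68. They summed to 66.1 to 622 CPM there, against 18.2 to 49.7 CPM on chow. The part of adipocyte and cell cycle genes in the day 4 changes was not tested.

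**Figure D4:**
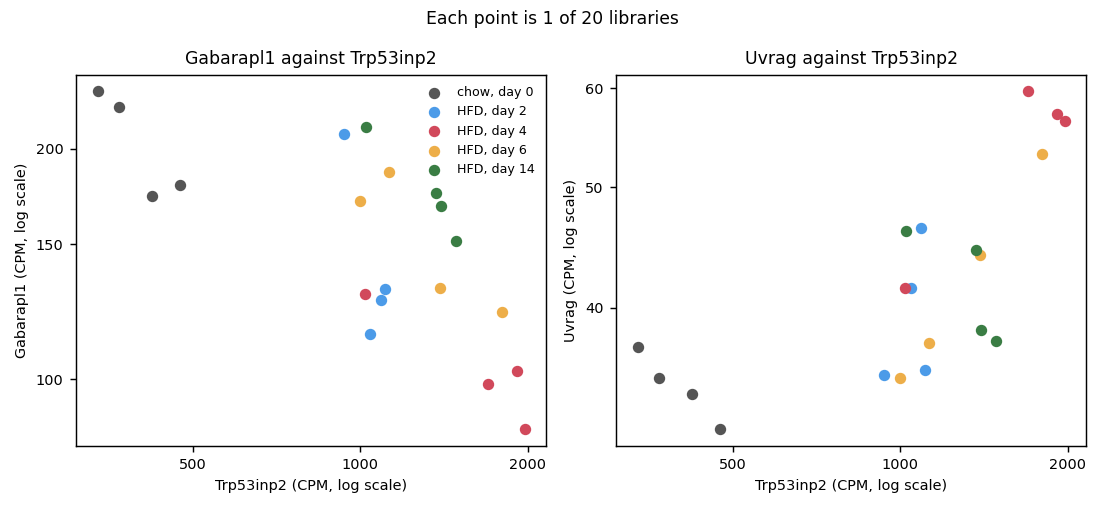
Gabarapl1 (left) and Uvrag (right) against Trp53inp2, in CPM on log axes, with 1 point for each of 20 libraries coloured by day. Day 4 replicates 2 to 4, at 1700.4 to 1978 CPM of Trp53inp2, hold the lowest Gabarapl1 and the highest Uvrag, and day 4 replicate 1, at 1021 CPM of Trp53inp2, lies among the day 2 points.

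The genes whose levels were most like Trp53inp2 over the 20 libraries, among the 9191 that averaged 10 CPM or more, were Fads3 (r = 0.93), Cdc42ep1 (0.92), Lep (0.91), Rbm28 (0.91) and Ramp2 (0.91). Lep encodes leptin, the adipocyte hormone of energy stores, and Ramp2 a receptor partner for adrenomedullin. Lep averaged 637 CPM on chow and 1432, 2645, 1762 and 1789 CPM on days 2, 4, 6 and 14. Its log2 changes against chow were 1.17, 2.05, 1.47 and 1.49, with edgeR adjusted p-values of 0.0435, 9.26e-04, 0.0297 and 0.0289. The day 4 call held in all 8 fits that left out 1 library, and the others were lost without chow replicate 2 or 4 (days 2 and 14 also without 3), day 2 replicate 1 or 4, day 6 replicate 2, 3 or 4 and day 14 replicate 1 or 3, with edgeR adjusted p-values of up to 0.177. In those fits the log2 change was 0.92 to 1.24 (day 2), 1.24 to 1.56 (day 6) and 1.30 to 1.55 (day 14). Lep is also one of the adipocyte markers used above. The genes most opposite were Phf2 (-0.92), Tpt1 (-0.91), Cirbp (-0.91), Oscp1 (-0.90) and Eif4b (-0.89). Cirbp, a cold-inducible RNA-binding protein gene, averaged 63.3 CPM on chow and 42.2, 24.6, 34.3 and 33.4 CPM on days 2, 4, 6 and 14. Tpt1, a translation-linked gene, has several annotated pseudogene copies whose reads could not be told apart.

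Trp53inp2 and Map1lc3a, the pair called at all 4 times, lie close together on chromosome 2 of the mouse, with the protein-coding gene Pigu between them in the RefSeq order. These neighbours were examined after the values were seen. Pigu, which encodes a subunit of the transamidase for lipid-anchored proteins, changed by 0.24 ± 0.08, 0.28 ± 0.08, 0.30 ± 0.08 and 0.48 ± 0.08 on the log2 scale on days 2, 4, 6 and 14. Its edgeR adjusted p-values were 0.0895, 0.0160, 0.04998 and 0.00807, so it passed on days 4, 6 and 14, on day 6 just under the threshold. Dynlrb1, next to Map1lc3a on the far side, was 0.33 ± 0.10 on day 14 (edgeR adjusted p = 0.0825). Ncoa6, next to Trp53inp2 on the far side, lay between -0.04 and 0.08 at the 4 times (edgeR adjusted p of 0.668 to 0.963).

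The other autophagy machinery, 60 genes in 4 lists that were all tested, were called on day 4 at about the share of all genes. On day 4, 9 were called higher and 13 lower (18% and 17.3% of all genes), on day 2 1 higher and 3 lower, and on days 6 and 14 1 higher each. The median log2 change of the 60 was 0.03, 0.05, 0.04 and 0.02 on days 2, 4, 6 and 14. Scaled by library size alone, the day 4 split became 2 higher and 16 lower, where 35.6% of all genes were called. Under that scaling the median log2 change over all genes was itself -0.13. The lean to lower calls therefore cannot be told apart from that shift. Without chow replicate 4 and day 2 replicate 1 the split was 4 higher and 11 lower, where 3975 of all 15314 genes tested were called.

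Of the 4 lists, that of selective autophagy receptors leaves out Optn, called higher on day 4, and Sqstm1, not called. The list had 0 of 15 genes higher and 8 lower on day 4, with a median log2 change of -0.30. Of all genes 18% were higher and 17.3% lower there. At an unadjusted p under 0.05 there were 8 in all, and DESeq2 and both limma-voom fits also gave 0 higher, with 8, 7 and 7 lower. Among those called lower were Retreg1, a receptor for endoplasmic reticulum, at -1.73 ± 0.46, and Stbd1, a glycogen-binding receptor, at -1.501 ± 0.34 (edgeR adjusted p = 0.00808 and 0.00359). Retreg1 had 1.57 to 2.44 CPM on day 4 against 2.73 to 15.3 CPM on chow, and Stbd1 2.16 to 4.71 CPM against 5.16 to 15.1 CPM. Both genes were low on day 4 in every library. The highest chow value of both was in replicate 4, the library with the high sum of epithelium markers. Without it the day 4 values were -0.92 ± 0.33 for Retreg1 and -1.19 ± 0.33 for Stbd1 (edgeR adjusted p = 0.0466 and 0.0153). The call of Stbd1 was lost without all 4 libraries that stood apart (0.0525). Ncoa4, the ferritin receptor, had 70.8 to 100.1 CPM on day 4 against 94.2 to 149.9 CPM on chow and fell by 0.60 on the log2 scale, and Calcoco1, another receptor for endoplasmic reticulum, fell by 0.45 (edgeR adjusted p = 0.00436 and 0.0115). Nbr1, Bnip3, Bnip3l and Fundc1, named to complete the count, were the other 4 called lower, at -0.30, -0.78, -0.37 and -0.26. Retreg1, Stbd1 and Ncoa4 were also lower on day 2, by -1.58, -1.44 and -0.52 (edgeR adjusted p = 0.0495, 0.0266 and 0.0468). Each of these day 2 calls was lost without chow replicate 2 and without day 2 replicate 1, 3 or 4, and those of Retreg1 and Stbd1 also without chow replicate 4, where the values were -0.74 and -1.11 (edgeR adjusted p = 0.233 and 0.104); that of Ncoa4 was also lost without chow replicate 3 (0.110). The count of receptors lower on day 4 was 7 without chow replicate 4 and day 2 replicate 1, and 8 when scaled by library size alone. In these fits 3975 of 15314 and 5431 of 15254 genes were called in either direction.

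Among 12 genes of initiation and the lipid kinase complexes, 1 was higher and 2 lower on day 4, where 35.3% of all genes were called. Atg14 and Pik3c3, the targeting subunit and the catalytic subunit of the lipid kinase complex, both fell by 0.50 on the log2 scale (edgeR adjusted p = 0.00707 and 0.00829, called in all 8 fits that left out 1 library). Ulk2, the paralog of Ulk1, was higher by 0.19, 0.33 and 0.35 on days 4, 6 and 14 (edgeR adjusted p = 0.0476, 0.0317 and 0.0257). Without chow replicate 4 the edgeR adjusted p-values were 0.117, 0.110 and 0.0898, and the day 4 call held only without day 4 replicate 2 among the 8 such fits. The day 6 call was also lost without day 6 replicate 2, 3 or 4 and the day 14 call without day 14 replicate 2 or 3. Its levels were 116 to 118 CPM on day 14 against 88.5 to 96.1 CPM on chow. Nrbf2, another subunit of the complex, was higher by 0.47 on day 2 (edgeR adjusted p = 0.0454), a call lost without chow replicate 2, 3 or 4 or day 2 replicate 1, 3 or 4 (0.0738 to 0.137).

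Of 19 genes of membrane supply and conjugation, 5 were higher and 2 lower on day 4, against 35.3% of all genes called. Atg9a, a lipid scramblase of the vesicles that seed autophagosomes, was higher by 0.36 ± 0.09, and Atg12, part of the conjugation system, by 0.32 ± 0.09 (edgeR adjusted p = 0.00746 and 0.0116; for Atg12 0.0511 without day 4 replicate 3). Tmem41b, a scramblase of the endoplasmic reticulum, was higher by 0.51 ± 0.17 (0.0246; 0.0522 to 0.0820 without chow replicate 2, 3 or 4 or day 4 replicate 1 or 4), and Atg3 and Atg5 were the other 2. Wdr45, a lipid-binding scaffold, was lower by -0.71 ± 0.19 (edgeR adjusted p = 0.00756). Vmp1, the other one called lower, encodes a scramblase that binds the Trp53inp2 protein and was lower by -0.54 ± 0.19 (edgeR adjusted p = 0.0359). Of 14 fusion genes 3 were higher and 1 lower, against the same share: Ykt6, a membrane fusion protein gene, by 0.68 ± 0.14, Vps18 by 0.31 and Snap29 by 0.26, against -0.25 for Vps11 (edgeR adjusted p = 0.00220, 0.00949, 0.0263 and 0.0353). The calls of Snap29 and Vps11 were each lost without day 4 replicate 2, 3 or 4 and without chow replicate 1 or 4 (Snap29) or 2 or 3 (Vps11), with edgeR adjusted p-values of up to 0.116.

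**Figure D5:**
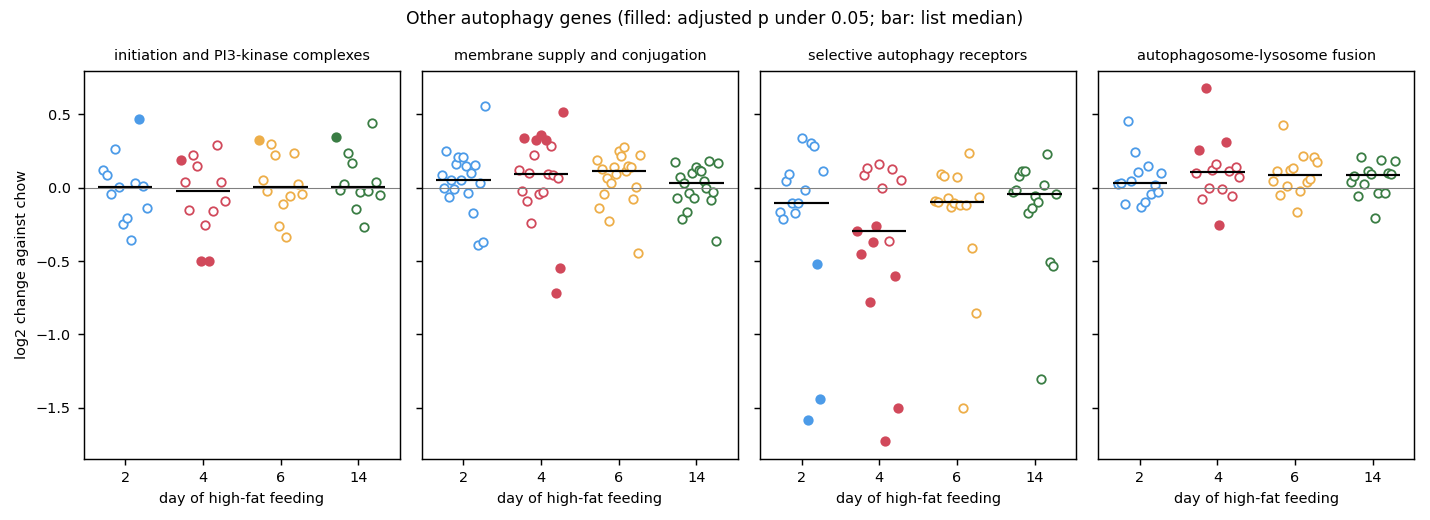
Log2 change against chow of each gene of 4 lists of other autophagy genes (panels) on days 2, 4, 6 and 14, filled where the adjusted p is under 0.05, with a bar for the list median. The receptor panel holds 8 filled points on day 4, all below 0, while in the other panels the filled points lie on both sides of 0. The receptors Optn, called higher on day 4, and Sqstm1 are not in this panel.

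The upstream regulators moved both ways on day 4, with 6 of 20 higher and 7 lower, where 18% of all genes were higher and 17.3% lower. Trp53inp1, described above, is among the 20 and is 1 of the 7 lower. The same shares stand behind the lysosome and Nrf2 counts given next. Tfe3, a transcription factor of lysosomal genes, was higher by 0.35 ± 0.08 and its relative Mitf lower by -1.05 ± 0.25, and Foxo3, a factor known to induce autophagy genes, was lower by -0.75 ± 0.18 (edgeR adjusted p = 0.00273, 0.00513 and 0.00441). Mlst8, a subunit of the mTOR complexes that restrain autophagy, was higher by 0.54 ± 0.14 (edgeR adjusted p = 0.00732). Of 21 lysosome genes 4 were higher and 5 lower, among them the proton pump subunits Atp6v0d1 at 0.42 and Atp6v1a at 0.39 and the membrane protein Cd63 at -0.84 (edgeR adjusted p = 0.00167, 0.0119 and 0.00177; for Atp6v1a 0.0576 without the 4 libraries that stood apart). Reads of Cd63 could be shared with its annotated pseudogene copy. Of 10 targets of Nrf2, a stress factor that p62 can free from its inhibitor, 4 were higher and 2 lower, with Slc7a11 at 1.98, Hmox1 at 0.65, G6pdx at 0.51 and Gsr at -0.29 (edgeR adjusted p = 0.0183, 0.0166, 0.00756 and 0.0207). Without day 4 replicate 2, those of Slc7a11, Hmox1 and Gsr were 0.0569, 0.0666 and 0.0744. Slc7a11 was also lost without chow replicate 3 or day 4 replicate 4, and Gsr without chow replicate 2 or day 4 replicate 3 (0.0550 to 0.0620).

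Of 9 nuclear receptors bound by Trp53inp2 and their partners, 0 were higher and 2 lower on day 4, against 35.3% of all genes called. Thra, the thyroid hormone receptor alpha gene, was lower by -0.39 ± 0.10, and Ncoa2 by -0.24 ± 0.08 (edgeR adjusted p = 0.00561 and 0.0321). Rxra, the shared partner of these receptors, was higher by 0.45 ± 0.11 on day 2 (edgeR adjusted p = 0.0297) and was not called without chow replicate 2 or 4 or day 2 replicate 1, 3 or 4 (0.0546 to 0.104). The call of Ncoa2 was lost without chow replicate 3 or 4 or day 4 replicate 2, 3 or 4 (0.0533 to 0.120). On days 6 and 14 0 of the 9 were called by edgeR (1 and 0 at an unadjusted p under 0.05), and 0 by DESeq2 and both limma-voom fits.

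Markers of other cell types differed beside these results. The 10 mesothelial genes summed to 400 to 523 CPM on chow, then 126 to 190 (day 2), 82.2 to 243 (day 4), 179 to 316 (day 6) and 177 to 379 CPM (day 14). The 8 endothelial genes summed to 1005 to 1908 CPM on day 4, against 842 to 1134 CPM on chow. The 12 macrophage genes summed to 765 to 1244 CPM on day 2, wholly below the 1324 to 1579 CPM of chow, and to 814 to 1513 CPM on day 4; 12 of 12 were negative on day 2, with a median log2 change of -0.39 and 0 called by edgeR (3 at an unadjusted p under 0.05), by DESeq2 or by both limma-voom fits. T and B cell markers summed to 5.49 to 13.9 CPM on day 4, against 8.95 to 16.8 CPM on chow, and skeletal muscle markers to 14.0 to 47.3 CPM, against 14.1 to 37.9 CPM. The sum of skeletal muscle markers was lower on day 2, at 6.47 to 11.5 CPM, without overlap with chow. Only 4 of these 10 markers passed the filter on low counts, and 0 of the 4 were called on day 2 by edgeR. None of these sums separates all high-fat libraries from chow as Trp53inp2 does except the mesothelial one, and its part in the result was not tested.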

How the data were processed

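The authors deposited 1 table of raw counts per gene for 20 RNA-seq libraries, which hold whole numbers. RNA was purified from the fat with RNeasy Mini columns and made into TruSeq RNA libraries, per the labels' protocols. CASAVA, STAR, featureCounts, limma and R 3.0 are named, without roles, per the submitters' processing notes; the genome build, annotation and strand setting are not given in the sources used here. Columns were assigned to samples by name.

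Genes without a symbol held 0.139% of counts and stayed in the table. Genes kept by filterByExpr of edgeR, at a count of 10 with a total of 15 or more, were scaled by TMM and fitted with edgeR 4.0.16 (robust quasi-likelihood) in R 4.3.3, with 5 groups in 1 model. P-values were adjusted by Benjamini-Hochberg over 15254 genes and called at 0.05. Each SE is the log2 change divided by the square root of F, and intervals are at 95%. DESeq2 1.42.0, limma 3.58.1 (voom, with and without quality weights), other scalings and filters, a replicate block, fits of only the groups compared and fits without libraries were alternatives. The steps were tested on simulated counts. Correlations use log2 CPM with a prior count of 2. Lengths come from GENCODE M21 and upstream sequences from RefSeq (GRCm38.p6), where 9 of the 10 genes matched by symbol.

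Total counts per library were 8279454 to 38832429 (chow), 1916829 to 26798901 (day 2), 4578703 to 16274913 (day 4), 11418864 to 32363044 (day 6) and 6724707 to 24581101 (day 14). Values of genes with few reads are least precise in the shallow libraries. Libraries of the same group correlated at 0.954 to 0.989 in log2 CPM, and no pair was identical. That the replicates are separate animals is not stated, so p-values measure the spread between these libraries.

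The 10 genes and the other lists were chosen with earlier results of these data known. From each other list, up to 4 genes called against chow were named in order of their smallest adjusted p; the genes most alike are the 5 highest and 5 lowest correlations. A lysosome gene that this rule names is not reported here.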

Additional observations from a re-analysis of the deposited data

Results flagged for a closer look

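Among 50 sets of 4 libraries screened (10 genes in 5 groups), 3 held a library far from its group, where chance flags about 1 in 20. Map1lc3a had 96.8 CPM in chow replicate 4, below 121 to 124 CPM in the other 3 chow libraries. Gabarap had 219 CPM in the same library, below 262 to 268 CPM in the rest of the group. Ulk1 had 55.8 CPM in day 4 replicate 1, below 65.5 to 66.8 CPM in the other day 4 libraries.

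The change against chow differed between day 14 and day 4 for 4 genes by edgeR's test of the difference itself, where 9.36% of all genes were called. Without day 4 replicate 2, 3 or 4 or day 14 replicate 1 or 2, 0 of all genes were called. The difference of day 14 from day 4 was 0.37 on the log2 scale for Map1lc3a, 0.61 for Map1lc3b, 0.77 for Gabarapl1 and -0.84 for Optn.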

How the results depend on the processing

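Counts of the 10 genes that moved by over 1.5 times are given by setting, and for these the cause was not tested. Whether the numbers of replicates pair the libraries was not settled. Same-numbered libraries deviated together in 12 of 40 pairs (correlation over 0.1), and 10 of 20 libraries correlated best with their own number. The value that chance gives was computed for neither. The mean correlation was -0.00117, 0.108, 0.0334 and 0.0851 for replicates 1, 2, 3 and 4, against -0.0190 for different numbers. With the replicate block, 4 genes were called on day 2 (5.93% of all genes) instead of 2 (4.39%). Limma-voom with quality weights called 4 on day 2 (8.16% of all genes), 4 for day 4 against day 2 (22.2%), 4 for day 6 against day 4 (13.4%) and 7 for day 14 against day 4 (31.1%). For that last comparison limma-voom called 1 (3.26% of all genes), as did edgeR with no filter (1.66%), and DESeq2 called 2 for day 4 against day 2 (5.99%). With only the groups compared in a fit, 1 was called on day 2 (1.19% of all genes) and 0 on day 6 (0%), where Trp53inp2 was 1.73 (adjusted p = 0.0955). Without chow replicate 4 and day 2 replicate 1 the counts were 1 on day 2 (0.0457% of all genes), 1 on day 6 (0.0196%) and 3 for any difference (4.93%). Without the 4 libraries that stood apart they were 1 on day 2 (0.0854%), 1 on day 6 (0.0263%), 3 for day 4 against day 2 (16.1%) and 4 for day 6 against day 4 (14.9%).

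With 1 library left out, counts ran from 1 to 5 (day 2), 4 to 6 (day 4), 1 to 2 (day 6) and 0 to 3 for day 4 against day 2. They ran from 0 to 5 for day 14 against day 4 and from 2 to 6 for any difference, and day 14 stayed at 2. Trp53inp2 ran from 1.32 to 1.49 (day 2), 1.93 to 2.22 (day 4), 1.55 to 1.85 (day 6) and 1.65 to 1.82 (day 14). Of 836 other values under alternatives 793 kept their side of the threshold, 16 lost and 27 gained a call. Of 608 with 1 library left out 568 kept it, 33 lost and 7 gained one. No called value changed sign, and sign changes of values called in neither fit (48 and 44) were not counted. In the smallest library, day 2 replicate 1, the fewest reads among the 10 genes were the 64 of Gabarapl2.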

Other observations

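Counted within a library, Trp53inp2 had 1.28 to 1.92 times the reads of Gabarap on chow, then 3.27 to 4.30 (day 2), 3.86 to 8.96 (day 4), 3.79 to 7.53 (day 6) and 3.92 to 5.85 times (day 14). These ratios are not per length and do not depend on the scaling, and no high-fat library overlapped chow.

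Mesothelial genes had 10 of 10 called lower on day 4 and 9 of 10 on day 2, where 17.3% and 1.96% of all genes were called lower. On days 6 and 14 2 and 0 of the 10 were called lower, where 1.46% and 0.302% of all genes were. Of 12 macrophage genes 0 were called against chow on day 2 or 4 by edgeR, by DESeq2 and by both limma-voom fits, with 3 and 1 at an unadjusted p under 0.05 by edgeR.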
